A study of Mus musculus with 2 samples.

Results

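The transcripts described here encode 8 proteins of mitochondrial iron transport, of the supply or movement of haem precursors, or of iron-sulphur cluster assembly. They are Slc25a37, Slc25a28, Slc25a38, Abcb10, Abcb6, Tmem14c, Glrx5 and Iscu. They were taken as every non-control probe whose gene name on the array was 1 of these 8 symbols, which gave 10 probes of the 41174 on the array and 8 of 27597 genes. All 10 probes passed the filter on dim spots, and so all 8 genes were tested. RNA came from G1E-ER-GATA-1 cells, a mouse erythroid line without its own GATA-1 (the labels give the cell type as embryonic stem cells and the tissue as erythroid), into which a fusion of GATA-1 with part of the oestrogen receptor was put. Both groups therefore share the GATA-1 deficiency and the fusion protein, and both were kept in β-estradiol for 24 h, which switches the fusion on. The groups differ in the siRNA given before, which was either control siRNA or siRNA against ETO2, a corepressor encoded by Cbfa2t3 that works in complexes with GATA-1. Each of 2 arrays carried control RNA in red (Cy5) and ETO2 siRNA RNA in green (Cy3), and the dyes were not swapped.

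Haem is made in steps that begin and end in the mitochondrial matrix. Iron must cross the inner membrane to reach ferrochelatase, which inserts it into protoporphyrin, and the same iron feeds the machinery that builds iron-sulphur clusters. Maturing red cells depend on this traffic because they fill with haemoglobin, and mitoferrin 1, the product of Slc25a37, is the main importer of iron into their mitochondria.

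After ETO2 siRNA the mitoferrin 1 transcript Slc25a37 was 3.51-fold higher by its bright probe, the third highest ratio among 24430 probes tested. Iscu, Abcb6 and Abcb10 were higher by smaller amounts, and Glrx5 has only an approximate upper limit, since its control channel was saturated. Slc25a28, the paralogue of Slc25a37, and Tmem14c were slightly lower, and Slc25a38 did not pass the test. By probe, 6 of 10 were called higher, where 18.8% of all tested probes were, and 2 were called lower, where 20.7% were. These counts turned with the scaling, to 2 higher and 4 lower with median centring and 4 higher and 0 lower on the scanner's processed signals. By the brightest probe of each gene, 5 of 8 were called higher against 18.1% of 16585 genes, and 2 were called lower against 21.9%. The 8 were brighter than most, with a median log2 brightness of 13.24 against 9.29 for all genes tested. Without Glrx5, 4 of 7 genes were called higher and the median log2 ratio of the 7 was 0.25. With Glrx5 the median was 0.36, and that of all genes tested was -0.02. A call means an adjusted p under 0.05 in limma over all kept probes, and every ratio is ETO2 siRNA over control siRNA on a log2 scale after loess, which sets the bulk of the probes near 0.

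The targeted gene and markers of several cell types were read on the same arrays. The ETO2 transcript, Cbfa2t3, stood at -0.42 ± 0.05 (SD, n = 2 arrays) on the log2 scale, and its second probe at -0.23. All 10 erythroid markers were measured. The 8 without a saturated channel were called higher, and their summed normalised signal on arrays 1 and 2 was 161569 and 168500 after ETO2 siRNA against 87739 and 87619 after control siRNA. Slc4a1 had the largest log2 ratio of the 8, at 2.88, and the others ran from 0.25 (Klf1) to 1.04 (Alas2). The brightest probes of the globin genes Hba-a1 and Hbb-b1 were saturated in both channels on both arrays and measure no ratio. With them the sums were 339983 and 362571 against 182018 and 174717. The globin part of that difference comes from loess, which added 0.94 and 1.17 to the log2 ratios of both probes on arrays 1 and 2. The Hbb-b1 probe with an unsaturated ETO2 siRNA channel, whose control channel was saturated, stood at -0.21 and was called lower. A capped control signal can only raise the ratio, so this value is an approximate upper limit. Of the embryonic stem cell markers, 2 of 7 were measured, with a sum of 278 and 283 against 293 and 330, and Pou5f1, Nanog and Sox2 were not well above background. Mast cell markers (4 of 6 measured) summed to 1488 and 1598 against 2972 and 2920, and Kit was the brightest of the 4. Hdc (-1.38) and Kit (-0.98) were called lower, while Cpa3 (-0.16) and Fcer1a (-0.0045) were not called. Ms4a2 and Mcpt8 were not well above background. Megakaryocyte markers (4 of 5) summed to 12634 and 14802 against 8417 and 10025. Gp9 and Pf4 were called higher, Itga2b and Gp1bb were not called, and Ppbp was not well above background. Granulocyte and macrophage markers (3 of 7) summed to 321 and 320 against 343 and 349. The part of these shifts in the members' ratios was not tested, and in bulk RNA a change in the number of cells of a type cannot be told apart from a change in RNA per cell. The ratios of the 2 arrays had a Pearson correlation of 0.845 across the kept probes, which are not independent replicates, and the median SD between arrays was 0.06.

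Mitoferrin 1 and mitoferrin 2 are sister carriers of the SLC25 family, of which the first serves mainly erythroid cells and the second is found in many tissues. The bright Slc25a37 probe (A_51_P343429) had unnormalised signals, in scanner units, of 37014 after ETO2 siRNA and 19785 after control siRNA on array 1, and 39872 and 24424 on array 2. The second Slc25a37 probe (A_52_P507688) had 1223 and 1087 on array 1, and 1158 and 1063 on array 2. On both probes and both arrays the ETO2 siRNA channel was the brighter before any normalisation, which held for none of the other 8 member probes. After loess the bright probe gave log2 ratios of 1.80 and 1.82, a mean of 1.81 ± 0.01 (SD, n = 2 arrays; limma adjusted p = 5.17e-11). The second probe gave 0.90 and 0.97, a mean of 0.94 ± 0.05 (SD, n = 2 arrays; limma adjusted p = 3.31e-08), or 1.91-fold, and ranked 84 from the top. The 2 probes had the same direction but different sizes. Their 95% intervals, from 1.68 to 1.95 and from 0.80 to 1.07, do not overlap. Because their sizes differ, the first 30 of the 60 bases of each probe are shown as the array file gives them, with no letter marked.
Slc25a37 A_51_P343429: taagagtggcctagtgttgctttccgaatg
Slc25a37 A_52_P507688: ctatgagtttctgcaggagcaagtcaaccc

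The loess step added 1.01 on average to the log2 ratio of the bright probe and 0.80 to that of the second. Before it, the bright probe stood at 0.90 and 0.71 and the second at 0.16 and 0.11. With median centring of each array in place of loess, the bright probe stood at 1.18 and the second at 0.52, and both still passed the test. That scaling put the median of all kept probes at -0.29 and made 4.65% of all calls higher, against 47.6% with loess.

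**Figure D1:**
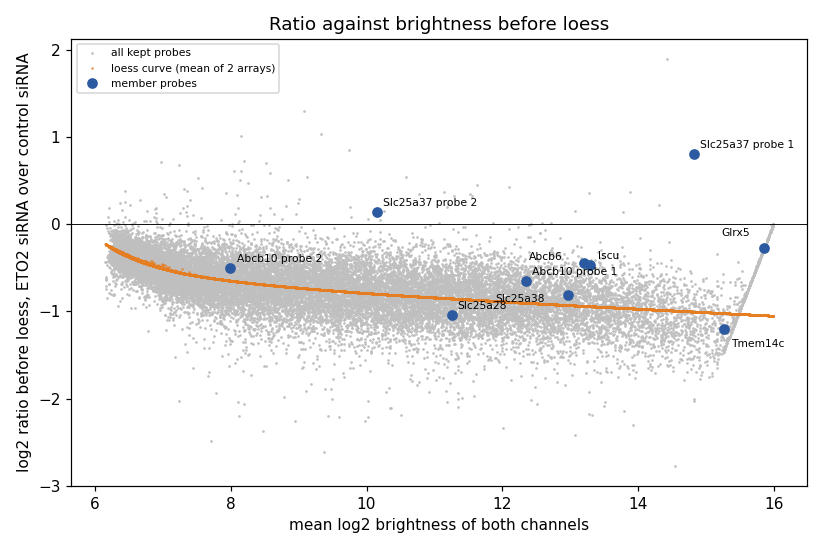
Log2 ratio of ETO2 siRNA over control siRNA before loess (vertical axis, mean of 2 arrays) against mean log2 brightness of both channels (horizontal axis) for all kept probes in grey, the loess curve in orange and the 10 member probes in blue. Both Slc25a37 probes lie above 0 while the curve runs below 0, and Glrx5 lies on the slanted edge formed by spots with a saturated control channel.

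Slc25a28, which encodes mitoferrin 2, went the other way. Its signals were 1793 after ETO2 siRNA and 3362 after control siRNA on array 1, and 1604 and 3629 on array 2. The log2 ratios were -0.12 and -0.26, a mean of -0.19 ± 0.09 (SD, n = 2 arrays; limma adjusted p = 0.0309), so that control cells were 1.14-fold higher. Both arrays lie below 0, and the call was lost with a normexp offset of 0 (adjusted p = 0.12 in limma) and on the scanner's processed signals (adjusted p = 0.0883 in limma).

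Slc25a38, the mitochondrial glycine carrier that supplies the first step of haem synthesis, had signals of 6187 and 10424 on array 1 and 5903 and 10897 on array 2, ETO2 siRNA first. Its log2 ratios were 0.09 and 0.13, a mean of 0.11 ± 0.03 (SD, n = 2 arrays), with an adjusted p of 0.182 in limma. Both arrays lie above 0, and the 95% interval of the mean runs from -0.02 to 0.25.

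Of the membrane proteins beyond the carriers, the ATP-binding cassette transporters Abcb10 and Abcb6 were called higher. Abcb10 lies in the inner membrane, binds mitoferrin 1 and stabilises it. Its bright probe (A_51_P144696) had signals of 4246 after ETO2 siRNA and 6178 after control siRNA on array 1, and 4059 and 6876 on array 2. The log2 ratios were 0.28 and 0.22, a mean of 0.25 ± 0.04 (SD, n = 2 arrays; limma adjusted p = 0.00536), or 1.19-fold. The second probe (A_52_P571431) was dim, with signals of 221 and 268 on array 1 and 195 and 322 on array 2. Its ratios of 0.31 and -0.02 fall on both sides of 0, with a mean of 0.15 ± 0.23 (SD, n = 2 arrays) and an adjusted p of 0.138 in limma. The first 30 of 60 bases of the pair are shown because the arrays agree in sign for the first and disagree for the second.
Abcb10 A_51_P144696: tgacgatttcaacagtcatgaaataaacca
Abcb10 A_52_P571431: ccatctgagcctattactagaatatttggt

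Abcb6, a porphyrin transporter reported at mitochondrial and other membranes, had signals of 8178 after ETO2 siRNA and 10067 after control siRNA on array 1, and 7878 and 11917 on array 2. Its log2 ratios were 0.55 and 0.43, a mean of 0.49 ± 0.08 (SD, n = 2 arrays; limma adjusted p = 3.08e-05), or 1.40-fold. The ratio was higher than those of 97.6% of kept probes.

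Tmem14c, an inner membrane protein needed for the movement of the haem precursor protoporphyrinogen into the matrix, had signals of 28103 and 60129 on array 1 and 24194 and 59808 on array 2, ETO2 siRNA first. The control spots were not called saturated, but 22.6% and 22.2% of their pixels were, so the control level may be read too low. The log2 ratios were -0.18 on both arrays, with a mean of -0.18 and an SD of 0.0011 (n = 2 arrays; limma adjusted p = 0.0345), and control cells were 1.13-fold higher. On the scanner's processed signals the ratio was 0.17 and did not pass the test (adjusted p = 0.211 in limma).

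**Figure D2:**
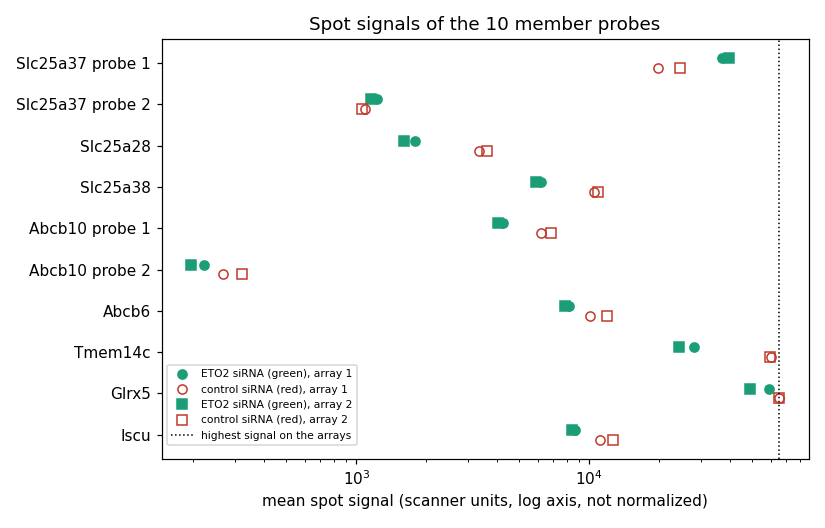
Mean spot signal before normalisation (horizontal log axis, scanner units) of the 10 member probes, with ETO2 siRNA as filled green symbols and control siRNA as open red symbols, circles for array 1 and squares for array 2. The green symbols lie to the right of the red ones for both Slc25a37 probes alone, and the control signals of Tmem14c and Glrx5 lie near or at the highest signal on the arrays (dotted line).

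Glrx5 and Iscu work in the matrix on iron-sulphur clusters. Iscu encodes the scaffold on which clusters are first assembled, and Glrx5 a glutaredoxin that passes them on. Iscu had signals of 8653 after ETO2 siRNA and 11066 after control siRNA on array 1, and 8391 and 12599 on array 2. Its log2 ratios were 0.50 and 0.45, a mean of 0.47 ± 0.04 (SD, n = 2 arrays; limma adjusted p = 3.58e-05), or 1.39-fold. Glrx5 had signals of 59119 and 65221 on array 1 and 49115 and 65104 on array 2, ETO2 siRNA first. Its control spots were saturated in 100% and 96.9% of pixels, and so no fold is given for it. In its ETO2 siRNA spots 10.7% of pixels were saturated on array 1 and 0% on array 2. A capped control signal can only raise the ratio, while the capped ETO2 siRNA pixels of array 1 can lower it. The Glrx5 log2 ratio after loess of 0.77 is therefore an approximate upper limit, and its call is not a measurement of a rise. With median centring it was 0.10 (limma adjusted p = 0.234), and with saturated probes left out 5 member probes were called higher in place of 6.

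**Figure D3:**
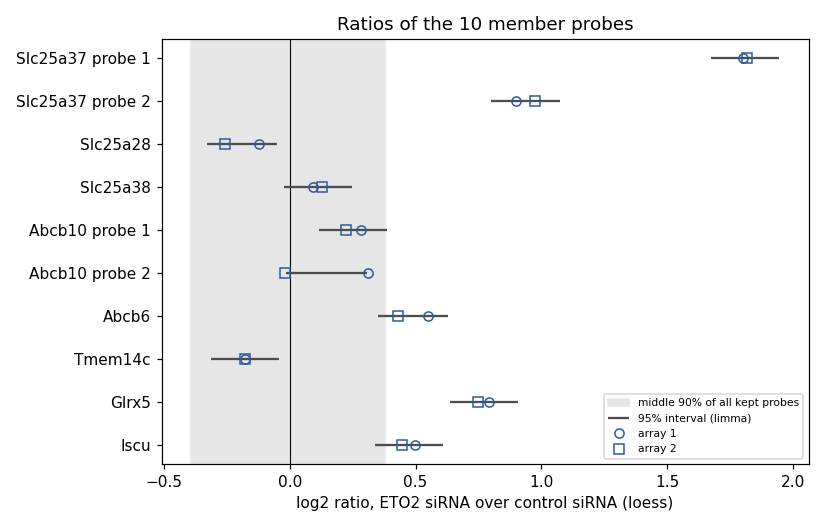
Log2 ratio after loess (horizontal axis) of the 10 member probes, with circles for array 1, squares for array 2 and bars for the 95% interval of the mean from limma. The grey band holds the middle 90% of all kept probes, and both Slc25a37 probes, Abcb6, Iscu and Glrx5 (an approximate upper limit) lie to its right.

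How the smaller ratios read depended on the scaling. With median centring, Abcb10, Abcb6, Iscu and Slc25a38 stood at -0.27, -0.07, -0.09 and -0.44, where the median of all kept probes was -0.29. Abcb6 and Iscu lay above that median, Abcb10 close to it and Slc25a38 below it. Tested against 0 under that scaling, Abcb10 (limma adjusted p = 0.000956) and Slc25a38 (limma adjusted p = 5.41e-08) were called lower. Abcb6 and Iscu were not called. On the processed signals Abcb10 was at 0.17 and Iscu at 0.29, both past no threshold, and Abcb6 was at 0.39 and passed it.

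**Figure D4:**
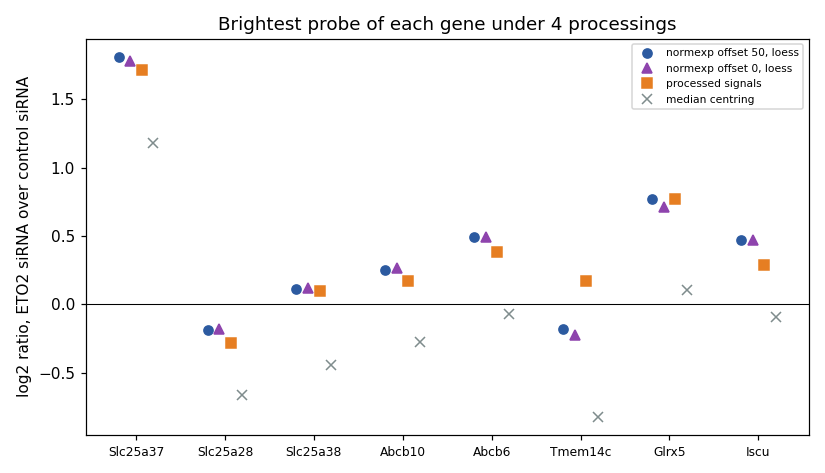
Log2 ratio (vertical axis) of the brightest probe of each of the 8 genes under 4 processings, 1 symbol per processing. Slc25a37 lies above 1 under all 4, while median centring places Slc25a38, Abcb10, Abcb6 and Iscu below 0.

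Other members of the same protein families were measured for comparison. Of 39 other SLC25 carriers 34 were measured, of which 6 were called higher and 7 lower, with a median of -0.02. For this and the ABCB count below, the shares over all genes were 18.1% higher and 21.9% lower. Slc25a21, a carrier of oxodicarboxylates, was the highest of them at 0.80 and Slc25a39, a glutathione carrier needed for normal haem synthesis, at 0.69. Slc25a16 and Slc25a46 were called higher at 0.35 and 0.30, and Slc25a5 was called higher with a saturated control channel. Slc25a12, the aspartate and glutamate carrier, was the lowest of them at -0.24. These compare with 1.81 for Slc25a37. Of 8 other ABCB transporters 6 were measured, of which 1 was called higher and 1 lower, the latter being Abcb9 at -0.19.

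Genes of the surrounding pathway were taken from 4 lists, of which 46 of 47 genes were measured, 14 called higher and 16 lower, with a median of 0.00. Of 15 genes of mitochondrial iron-sulphur assembly, 4 were called higher and 4 lower, with a median of 0.02. The higher calls included Iba57 at 0.30 and Isca2 at 0.21, which act late in cluster assembly. The lower calls were Bola3 at -0.43, ferredoxin (Fdx1) at -0.27, the cysteine desulphurase Nfs1 at -0.24 and its partner Lyrm4 at -0.23. Cytosolic iron-sulphur assembly (9 genes) had 3 higher and 4 lower, with Nubp2 at 0.40 and Ciao2a at -0.52, Nubp1 at -0.37, Ndor1 at -0.32 and Ciao2b at -0.29. A second Nubp1 probe was called higher at 0.19.

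Haem and iron handling, with 15 of 16 genes measured, had 7 higher and 3 lower. Of the 7, Cpox at 0.24 had 50% and 70% of its control pixels saturated on arrays 1 and 2, which can raise its ratio. Alas2, the erythroid enzyme of the first step of haem synthesis, was at 1.04, Slc25a39 at 0.69 and Ppox at 0.41, and Fech, the ferrochelatase that Slc25a37 supplies, was at 0.35 (its second probe at 0.01). The lower calls were Snx3, an endosomal sorting protein that recycles the transferrin receptor, at -0.71, Sfxn1, a serine carrier, at -0.33, and Slc48a1, which moves haem out of lysosomes, at -0.31. The second Sfxn1 probe, at -0.11, was not called. Of 7 iron and haem sensors none was called higher and 5 lower, with a median of -0.30. Hmox1, which breaks haem down, was at -0.50, Aco1, an iron regulatory protein, at -0.42, and Bach1, a haem-sensing repressor, at -0.31 ± 0.36 (SD, n = 2 arrays). The second Aco1 probe, at -0.05, was not called. Eif2ak1, the haem-regulated kinase, was called lower at -0.17 by its brightest probe, while another of its probes was called higher at 0.39. The shares to read these counts against are 18.1% higher and 21.9% lower over all genes. All genes were dimmer, with a median log2 brightness of 9.29 against 12.68 for the 4 lists pooled. The part of brightness in the shares called was not tested.

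**Figure D5:**
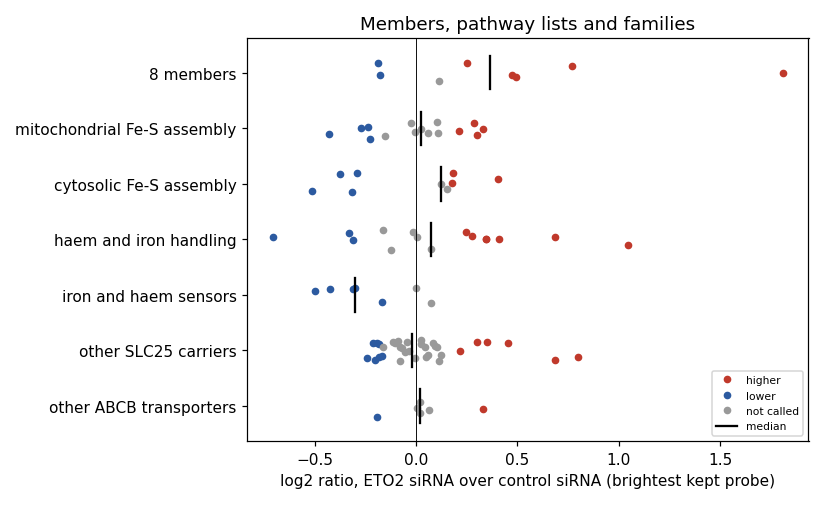
Log2 ratio after loess (horizontal axis) of the brightest kept probe of each gene in the 8 members, the 4 pathway lists and the other SLC25 and ABCB genes, coloured red for called higher, blue for called lower and grey for not called, with the median as a black bar. The medians of the lists lie between -0.30 and 0.12, and that of the members at 0.36, or 0.25 without Glrx5.

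The genes nearest to Slc25a37 were found by Euclidean distance of the log2 ratios over the 2 arrays. They were Rragd at a distance of 0.03 with a ratio of 1.79, Tmod1 with 1.63, 4930449E01Rik with 2.03, Epb42 with 1.39 and Aqp8 with 1.32. Both arrays hold the same contrast, so nearness here means a ratio of similar size and not a shared pattern. The genes beside Slc25a37 in the RefSeq gene order did not share its ratio. Nkx2-6, Adam28, Entpd4 and Loxl2 lay between -0.08 and 0.07 and none was called. Over all members, 32 neighbouring genes were measured, 3 called higher and 5 lower, with ratios from -0.32 to 0.31. Of all genes, 18.1% were called higher and 21.9% lower.

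ETO2 acts in complexes with GATA-1, which binds GATA with A or T before it and A or G after it. The 250 bases before the start of each gene were searched for these letters, for CCNCNCCC, a motif bound by the KLF family, and for CANNTG, which E-box factors bind, on both strands. RefSeq windows were available for 6 of the 8 genes (GRCm38.p6), and Slc25a37 and Iscu are named only. A GATA match was found in 1 of the 6, Slc25a28, at 112 to 107 bases before its start, and such a match occurs in 26.5% of 32851 windows of this length. CCNCNCCC occurred in Slc25a28, Slc25a38, Abcb6 and Tmem14c, and in 45.9% of all windows, with 4 matches in Abcb6, of which 2 overlap. CANNTG occurred in Slc25a38 and Abcb6, and in 66.2% of all windows. Abcb10 and Glrx5 held none of these motifs. Matched letters describe these windows and not binding. The windows of Slc25a28, called lower after loess, and of Abcb6, called higher, are shown 5′ to 3′ on the gene's strand. The GATA and CCNCNCCC matches are in capitals. Neither call held under every processing. These windows lie at chr19:43674882-43675131 and chr1:75180393-75180642, both on the minus strand.
Slc25a28: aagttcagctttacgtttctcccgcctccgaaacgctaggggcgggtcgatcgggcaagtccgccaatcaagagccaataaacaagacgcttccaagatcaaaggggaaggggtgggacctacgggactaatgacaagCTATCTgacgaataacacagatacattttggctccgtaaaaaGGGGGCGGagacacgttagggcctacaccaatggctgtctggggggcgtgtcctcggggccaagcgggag
Abcb6: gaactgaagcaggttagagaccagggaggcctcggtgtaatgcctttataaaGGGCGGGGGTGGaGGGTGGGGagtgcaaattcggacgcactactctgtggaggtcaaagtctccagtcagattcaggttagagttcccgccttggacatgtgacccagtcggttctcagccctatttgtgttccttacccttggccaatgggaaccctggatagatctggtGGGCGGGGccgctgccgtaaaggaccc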

How the data were processed

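Two-colour Agilent arrays were read with Feature Extraction 9.1.3.1, per the file headers. The intensity of each spot and of its local background was deposited in linear units without normalisation. The deposited processed intensity and log10 ratio had been background-subtracted and dye-normalised, per the file headers, and, per the file headers, other columns hold its flags and pixel numbers. Mean signals were corrected by normexp (offset 50) with local median background, and each array was normalised by loess in limma 3.58.1 (R 4.3.3). Spots of a probe were averaged. Of 41174 probes, 24430 (59.3%) were well above background in the same channel on both arrays and were tested against 0 with lmFit and eBayes (two-sided), adjusted by Benjamini-Hochberg. The brightest kept probe stood for a gene. Outlier flags removed 10 and 4 spots. The median signal was 82.8 and 77.5 in green and 105 and 105 in red, and the number of arrays limits the precision. The 2 arrays leave 1 residual degree of freedom, and a sign permutation could not give a two-sided p below 0.5, so the p-values rest on the variance shared over probes (14.4 prior degrees of freedom). Separate cultures are not named in the labels, which only number the arrays, so the p-values may measure technical spread only. Both arrays lay on 1 slide. Without a dye swap, a dye effect specific to a probe enters its ratio. Probe names were updated with RefSeq, through accession (24375), symbol (6301) or synonym (2426), while 8072 kept the array's name. Named genes were all members and probes, up to 4 members of largest change in each pathway list with those called against its median, the other SLC25 and ABCB genes, and the 5 genes nearest to Slc25a37. Some genes under this rule are not reported here; list counts and medians still hold them. Members and lists were chosen with earlier results of these data known. Steps were tested on simulated arrays. Alternatives were another offset, the processed signals, the deposited ratios, median centring, other filters and probe rules, and each array alone.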

Additional observations from a re-analysis of the deposited data

How the results depend on the processing

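Slc25a37 kept its direction and stayed past the threshold under all alternatives that test it, with log2 ratios from 1.18 to 1.81 for its bright probe, and its second probe fell from 0.94 to 0.52 with median centring. With median centring, Slc25a38 (-0.44), Abcb10 (-0.27), Abcb6 (-0.070) and Iscu (-0.092) changed sign. Slc25a38 and Abcb10 were then called lower, and Abcb6 and Iscu lost their calls. Glrx5 fell to 0.10 and lost its call. Member probes called were 2 higher and 4 lower, and pathway genes 1 higher and 40 lower. That scaling leaves the trend of ratio with brightness in place. With a normexp offset of 0, Slc25a28 (-0.18) and Tmem14c (-0.23) lost their calls and 0 member probes were called lower. On processed signals, Slc25a28 (-0.28), Abcb10 (0.17) and Iscu (0.29) lost their calls, Tmem14c changed sign (0.17), 0 member probes were called lower, and pathway genes called were 4 higher and 2 lower. The deposited ratios gave the same values to 2 decimals, with 3 and 2 pathway genes. Leaving out probes with any saturated pixel, chosen after seeing the data, left 1 member probe called lower, since Tmem14c and Glrx5 are then not tested. Pathway genes called were then 13 higher and 15 lower. The cause of the other changes was not tested. Each array alone, where no test is possible, gave the same sign for all 8 genes. No paired analysis was possible because each array already holds both RNAs and its ratio is the pair. Counts with 1 array and the slide as a block were not run, as 1 array leaves no spread and 1 slide held both arrays.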
